A study of Drosophila melanogaster with 2 samples.

Results

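Recovery of tagged Repo was examined at and around the genes of 5 regulators of glial fate in *Drosophila melanogaster*: repo, gcm, gcm2, ttk and zfh1. They were taken by symbol and make up 5 of the 13945 protein-coding genes of the annotation. All peaks with a summit from 20 kb upstream to 20 kb downstream of each gene were collected on the genome build dm6. The windows held 13 of the 2697 peaks of the optimal list, 125 of the 30000 peaks of the pooled list, 134 peaks of replicate 1 and 115 peaks of replicate 3.

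Glia are the support cells of the nervous system, and in the fly embryo most of them arise where precursors express gcm (glial cells missing), a transcription factor that turns a precursor from the neuronal to the glial path. Its relative gcm2 acts beside it, and both genes also act in hemocytes, the blood cells of the fly. Gcm switches on repo, which encodes a homeodomain transcription factor of glial cells that maintains and completes their differentiation. The zinc finger proteins of ttk (tramtrack) repress neuronal genes in cells that become glia, and zfh1 encodes a zinc finger homeodomain repressor of mesoderm, motor neurons, hemocytes and glia.

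The data came from chromatin immunoprecipitation followed by sequencing (ChIP-seq), which lists the genomic places where DNA was recovered with a protein. The only group was whole embryos of mixed sex, 0 to 24 hours old, of a transgenic fly line that stably expresses Repo with GFP fused to its C-terminus, and an antibody against GFP was used on chromatin sonicated to 200 to 800 bp. It held 2 biological replicates, numbered 1 and 3, and no other genotype or stage was analysed here, so members were set beside all genes or all peaks and no test was made. Whole embryos hold glia among many other cells, and strong recovery in few cells cannot be told apart from weak recovery in many. The labels used here give neither the insertion site of the transgene nor the number of repo copies in the line.

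Each peak has a summit and a signal value, which is the authors' own, has no stated scale and served only to rank peaks within a list, with rank 1 the highest. The optimal list is the set kept after the authors' thresholding on reproducibility between replicates, and its lowest signal was 84.0. Pooled peaks outside the optimal list are called weak peaks. The highest weak signal was 84.0136 and the lowest optimal signal 84.0147, so the optimal list equals the 2697 pooled peaks of highest signal. Whether a peak is optimal or weak thus follows its pooled signal, and not the agreement of the replicates at that peak. A gene was called bound if it had an optimal summit inside its body or in the 2000 bp before it. By that definition repo and zfh1 were bound and gcm, gcm2 and ttk were not, which is 2 of 5 members. Bound genes made up 19.7% of all protein-coding genes and 39.5% of those of 15 to 30 kb. Longer genes can hold more peaks. The genes ttk and zfh1 are 21526 and 23277 bp long, and repo, gcm and gcm2 are 3411, 2248 and 4145 bp long. Within the 20 kb windows, repo and gcm had 4 optimal peaks each, zfh1 had 3, gcm2 had 2 and ttk had 0. At least 1 optimal peak lay in the window of 65.2% of all protein-coding genes, and at least 4 lay in that of 10.1%.

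Sequences of 201 bases round the summit are shown for the peak of highest signal at repo, gcm and zfh1 and for the peak at the promoter of repo, since these are the peaks on which the account of the genes turns. They were read from the RefSeq sequence of dm6 on the plus strand. The summit is base 101 of each. Capitals mark matches to the motifs searched, described further on, and a sequence wholly in lower case held none of them.
repo upstream peak, chr3R:18228911-18229111: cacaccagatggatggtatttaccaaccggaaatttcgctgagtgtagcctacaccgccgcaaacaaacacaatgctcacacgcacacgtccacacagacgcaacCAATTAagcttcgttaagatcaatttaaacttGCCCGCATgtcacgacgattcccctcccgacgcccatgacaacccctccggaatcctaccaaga
repo promoter peak, chr3R:18235870-18236070: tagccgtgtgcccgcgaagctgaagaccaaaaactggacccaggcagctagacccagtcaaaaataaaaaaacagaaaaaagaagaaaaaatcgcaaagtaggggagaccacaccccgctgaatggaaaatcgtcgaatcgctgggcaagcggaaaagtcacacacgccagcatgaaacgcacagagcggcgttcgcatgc
gcm downstream peak, chr2L:9568646-9568846: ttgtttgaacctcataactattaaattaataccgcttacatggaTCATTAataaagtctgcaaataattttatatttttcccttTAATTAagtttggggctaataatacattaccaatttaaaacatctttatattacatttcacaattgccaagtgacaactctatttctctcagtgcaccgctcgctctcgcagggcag
zfh1 intron peak, chr3R:30781713-30781913: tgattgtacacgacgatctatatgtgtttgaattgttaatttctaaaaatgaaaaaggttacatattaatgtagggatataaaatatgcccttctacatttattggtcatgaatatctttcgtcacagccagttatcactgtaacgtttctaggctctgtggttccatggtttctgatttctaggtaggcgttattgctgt
The capitals of the repo upstream peak are CAATTA, the reported Repo site, and GCCCGCAT, the reverse complement of a Gcm site. Those of the gcm downstream peak are TCATTA and TAATTA, which are homeodomain words. The summit of the strongest peak of the gcm2 window lies in a UTR of Trx2, and its sequence is not shown.

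The gene repo (FBgn0011701, chromosome 3R, 18236192 to 18239602, plus strand) had all 4 of its optimal peaks upstream. The peak at its promoter, 18235772 to 18236167, had its summit 222 bp before the only annotated transcription start site (TSS) of the gene. It had a signal of 94.1 and was number 2198 in the optimal order, with rank 2149 in replicate 1 (signal 48.9) and rank 2667 in replicate 3 (signal 44.6). Both replicates thus placed it within their own 2697 highest peaks, near the lower end, and their summits lay 42 bp apart. This was the only optimal peak of the 13 in the promoter of a member gene.

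The strongest peak near repo was intergenic, at 18228813 to 18229208, 7181 bp upstream of the gene. It had a signal of 285 (rank 233), with rank 143 in replicate 1 and rank 423 in replicate 3. The summit of replicate 3 lay 65 bp from that of replicate 1, so the replicates gave the same strong peak but placed its summit apart by more than the 42 bp seen at the promoter. The nearest TSS belonged to Mdh2, a malate dehydrogenase gene, 2615 bp away, and the peak was therefore outside every promoter. Another strong peak at 18220188 to 18220583 had a signal of 243 (rank 326) and ranks of 325 and 340 in replicates 1 and 3, with summits 2 bp apart. Its summit lay 119 bp from the TSS of CG7183 and 15806 bp upstream of repo. The fourth peak, at 18223472 to 18223867, had a signal of 93.6 (rank 2217) and ranks of 2445 and 2687. It lay 12 bp from the TSS of mTerf5, a mitochondrial transcription termination factor gene, 12522 bp upstream of repo, so that 2 of the 4 peaks sat on promoters of other genes. These 2 peaks also covered the starts of genes on the opposite strand, CG7988 at 18220526 and Non3 at 18223722.

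The repo window had the highest density of weak peaks of the 5, with 28 or 6.45 per 10 kb, although the longer ttk window held more of them, 35 or 5.69 per 10 kb. With the optimal peaks, the repo window held 32 pooled peaks in 43.4 kb, or 7.37 per 10 kb, and 99.4% of all protein-coding genes had a pooled density at or below this value. The density of optimal peaks was 0.921 per 10 kb, which 93.2% of genes did not exceed. Replicate 1 had 31 peaks and replicate 3 had 32 in the window, and 27 of the 32 pooled peaks (84.4%) were found in both. Pooled peaks numbered 17 in the 20 kb upstream and 13 in the 20 kb downstream, 7 and 4 in the next 20 kb on each side, and 11 and 13 from 40 to 60 kb, so the density fell beyond the window and was high again further out. The window also held 16 protein-coding genes, the most of the 5 windows.

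Within the transcribed part of repo itself, 2 weak peaks lay in coding exons, with signals of 42.4 and 54.0. Between the strong upstream peak and the promoter peak, weak peaks at 18232206 to 18232601 and 18234746 to 18235141 had signals of 61.1 and 61.8, ranks 4921 and 4822. The strongest weak peak of the window, 18241983 to 18242378, lay at the promoter of CG7156, downstream of repo. Its signal was 82.3 (rank 2819), just under the lowest optimal signal, and its replicate ranks were 2844 and 3045 with summits 3 bp apart. Replicate 3 alone placed a further peak of the window among its 2697 highest, at 18244636 to 18245015 in an intron of 14-3-3epsilon (rank 2087).

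**Figure D1:**
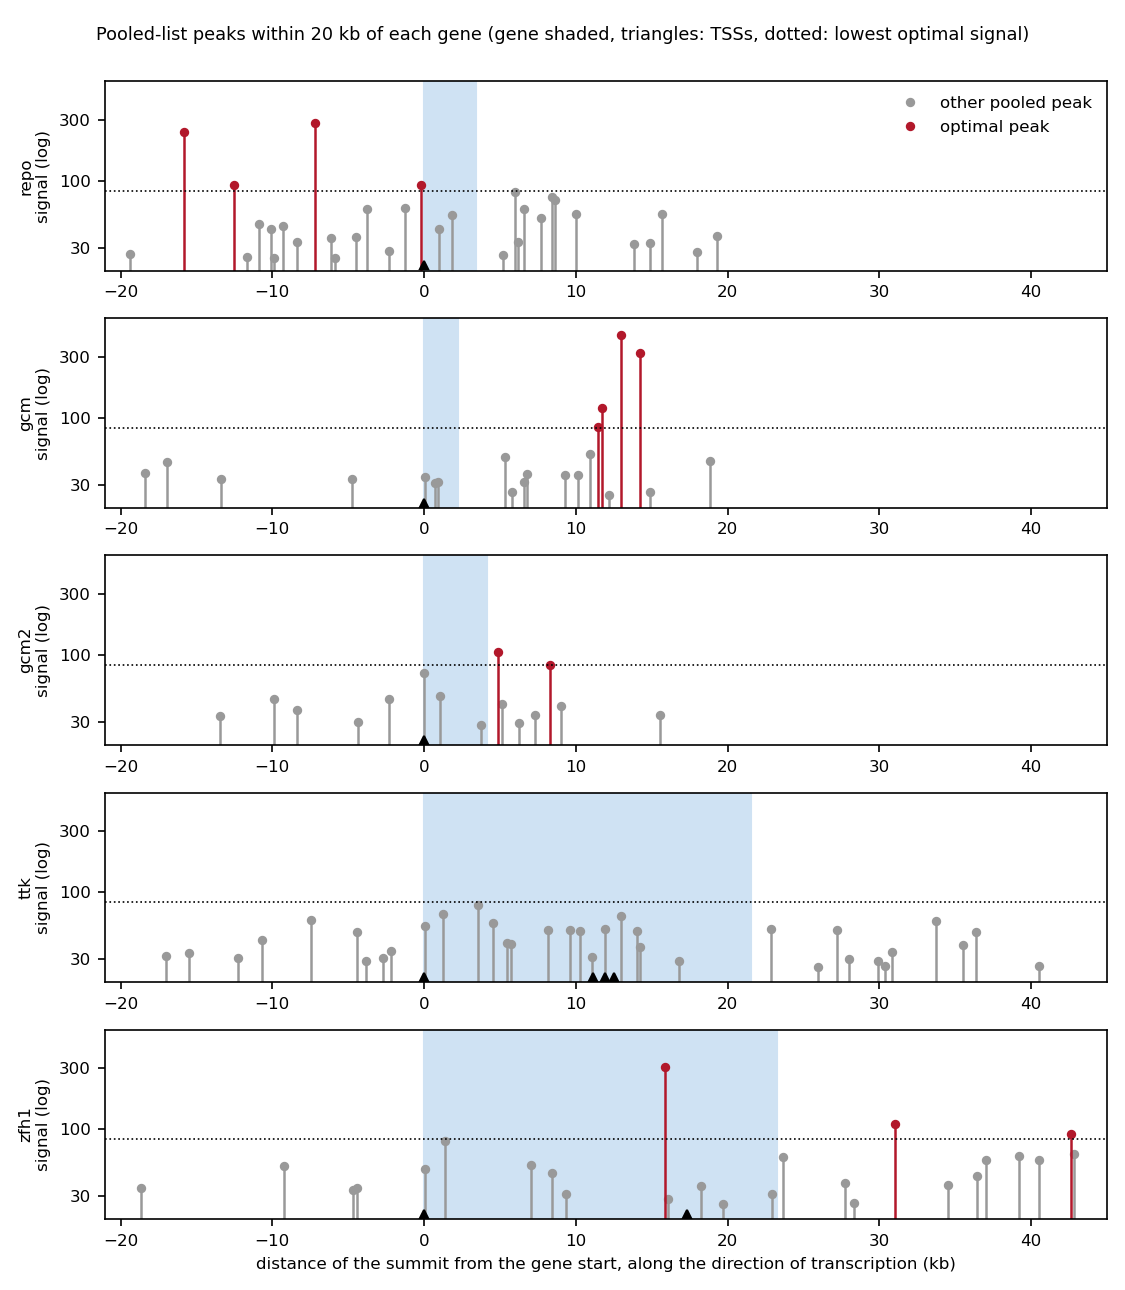
Signal of every pooled peak (log axis, the authors' values) against the distance of its summit from the start of the gene along the direction of transcription, in kb, for the 5 genes. Red stems are optimal peaks, grey stems weak peaks, shading the gene, triangles its TSSs, and the dotted line the lowest optimal signal of 84.0; the 4 optimal peaks of repo lie upstream, those of gcm and gcm2 lie downstream, and ttk has none.

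The gene gcm (FBgn0014179, chromosome 2L, 9579498 to 9581745, minus strand) was not bound. Its window nevertheless contained the strongest peak of the whole set, at 9568578 to 9568866, with a signal of 441 (rank 86). It was rank 64 for replicate 1 and rank 106 for replicate 3, with summits 34 bp apart. It lay 10752 bp beyond the end of gcm and 144 bp from a TSS of brwl, inside a long noncoding RNA gene, lncRNA:CR44149. A further strong peak at 9567406 to 9567634 had a signal of 321 (rank 166) and ranks of 203 and 143, with summits 41 bp apart. That one was intergenic, 792 bp from the TSS of jp, the junctophilin gene, and 11956 bp beyond the end of gcm.

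The remaining optimal peaks of the gcm window overlapped each other within brwl, at 9569840 to 9570235 and 9570054 to 9570449, with summits 214 bp apart. The first of these had a signal of 121 (rank 1386) and replicate ranks of 1537 and 1740. The other had a signal of 85.2 (rank 2629) and ranks of 5229 and 2789, so neither replicate held it among its 2697 highest. All 4 peaks were closer to a TSS of brwl or jp than to that of gcm, and Mtpalpha, a mitochondrial fatty acid oxidation gene, and CG31709 lie between brwl and gcm. The 4 summits lay within 2.71 kb.

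At gcm itself the signals in the pooled list were low. The peak over its only TSS, 28 bp away, had a signal of 34.9 (rank 16101), below the median of 36.1 of the pooled list. It ranked 8463 in replicate 1 (signal 26.3) and 6368 in replicate 3 (signal 29.1). Both signals were above the median of their own list, 20.2 in each, and the summits of the replicates lay 205 bp apart. Inside the gene, 2 further peaks in its coding exons had signals of 31.6 and 31.0. In the 20 kb upstream of gcm there were 4 pooled peaks with signals from 33.5 to 45.4, and no weak peak of the window ranked from 2698 to 5394 in the pooled list. The pooled density of the window was 4.97 per 10 kb, which 81.4% of all genes did not exceed; 14 of the 21 peaks lay downstream.

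The gene gcm2 (FBgn0019809, chromosome 2L, 9608562 to 9612706, plus strand) starts 26.8 kb beyond the start of gcm, and the windows of the 2 genes share 3 weak peaks and no optimal peak. It was not bound, although a peak sat on its promoter below the optimal list. That peak, 9608361 to 9608756, had a signal of 73.0 (rank 3509), and its summit was 3 bp before the TSS. It ranked 2791 in replicate 1 and 9640 in replicate 3, and the replicate summits were 3 bp apart, so the position was shared and the rank was not. Another weak peak in its intron had a signal of 48.5 (rank 7915). The optimal peaks of the window lay on promoters of the genes downstream. The peak at Trx2, a thioredoxin gene, 9613240 to 9613635, had a signal of 105 (rank 1794), lay 732 bp beyond the end of gcm2 and ranked 987 and 5934. The peak at GlcAT-S, a glucuronyltransferase gene, 9616629 to 9617024, had a signal of 84.3 (rank 2687) and ranked 4029 and 2420. Each of these 2 peaks was among the 2697 highest of 1 replicate only, while their summits were 15 and 9 bp apart. The pooled density, 3.40 per 10 kb, was close to the median of all genes, 3.31 (quartiles 1.86 to 4.60).

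The gene ttk (FBgn0003870, chromosome 3R, 31713867 to 31735392, plus strand) had no optimal peak in a window of 61.5 kb. Windows of 60 to 65 kb lacked an optimal peak at 31.0% of 203 genes, and the median was 1 (quartiles 0 to 3). The window was rich in weak peaks all the same, with 35 pooled peaks or 5.69 per 10 kb, a density that 91.0% of all genes did not exceed; 15 of them lay inside the gene. Genes with windows of 60 to 65 kb had a median of 19 pooled peaks (quartiles 11.5 to 25.5).

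The replicates differed on which weak peaks of ttk stood out. The strongest, at 31717241 to 31717636 within an intron, had a signal of 79.8 (rank 2978); it ranked 18172 in replicate 1 and 1572 in replicate 3, and the summits were 3 bp apart. The peak over the TSS at 31725780 had a signal of 51.9 (rank 6845) and the opposite order, with ranks of 2224 and 20431 and summits 243 bp apart. The peak over the most upstream TSS, 36 bp away, had a signal of 54.3 (rank 6199) and ranks of 7389 and 2525. At the TSS at 31724996 the signal was 31.5 (rank 19890), with no peak in replicate 1 and rank 6743 in replicate 3. The peak nearest to the TSS at 31726402, 420 bp away, had a signal of 65.5 (rank 4300) and ranks of 5038 and 10447. Each of the 4 annotated starts thus had a weak peak within 500 bp and none had an optimal one. No peak of the window was among the 2697 highest of both replicates: 1 was in replicate 1 and 2 others were in replicate 3. All 3 lay inside the gene, so that ttk would count as bound by the 2697 highest peaks of either replicate alone. Of the 35 pooled peaks, 19 (54.3%) were found in both replicates, the lowest share of the 5 windows. The 5 peaks of the window that ranked between 2698 and 5394 in the pooled list all had replicate summits within 50 bp. In the same range this held for 3 of 6 peaks at repo, 1 of 1 at gcm2 and 3 of 4 at zfh1. The share over all pooled peaks of these ranks was not computed.

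The gene zfh1 (FBgn0004606, chromosome 3R, 30765926 to 30789202, plus strand) was bound through a strong peak inside the gene. This narrow peak, 30781650 to 30781841, had a signal of 309 (rank 185) and lay in an intron, 1445 bp before the downstream TSS of the gene, where an antisense RNA gene, asRNA:CR45189, also runs. Replicate 1 ranked it 175, with its summit at 30781813. Replicate 3 had 2 peaks there: that of the nearer summit, at 30781909, ranked 1121, and that of higher signal, at 30781707, ranked 198. The replicates therefore both placed a peak among their 200 highest at this place, and their summits differed by 96 or 106 bp, according to which peak of replicate 3 is taken. The summit at 30781707 was classed as an exon outside coding sequence and UTRs, and that of replicate 1 as intron. ChIP-seq gives no strand, so recovery at zfh1 and at the antisense gene cannot be told apart.

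The starts of zfh1 carried little. The peak 38 bp from the upstream TSS had a signal of 48.7 (rank 7827), with ranks of 12462 and 3323 and summits 240 bp apart, and the peak nearest to the downstream TSS lay 922 bp away with a signal of 36.5 (rank 14720). The strongest weak peak, at 30767137 to 30767532 in an intron 1409 bp from the upstream TSS, had a signal of 81.1 (rank 2884) and ranks of 4334 and 2810, with summits 38 bp apart. The other optimal peaks lay beyond the gene. One in an intron of wts, which encodes a kinase of the Hippo pathway, at 30796729 to 30797124, had a signal of 110 (rank 1654) and ranks of 2273 and 1483. One at the promoter of cindr, an adaptor protein gene, at 30808347 to 30808742, had a signal of 92.7 (rank 2256), ranks of 1619 and 3017 and summits 156 bp apart, the widest gap of the 13. That peak was 19343 bp beyond the end of zfh1, near the edge of the window.

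The 13 optimal peaks together were not unusually strong. Their signals ran from 84.3 to 441 with a median of 110, while the median of all optimal peaks was 123, and 5 of the 13 ranked among the 1348 highest. Of the 13, 4 lay upstream of the member gene, 1 inside it and 8 downstream. By position, 9 were in a promoter (within 500 bp of a TSS of a protein-coding gene), 2 in an intron and 2 intergenic, while 55.1% of all optimal peaks were in promoters, 29.6% in introns and 11.6% intergenic. For 2 of the 13 the nearest TSS was that of the member gene itself. The median distance to the nearest TSS was 144 bp, with 340 bp over all optimal peaks. The 3 peaks narrower than 300 bp were the strong ones at gcm and zfh1, and 14.5% of all optimal peaks were as narrow.

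**Figure D2:**
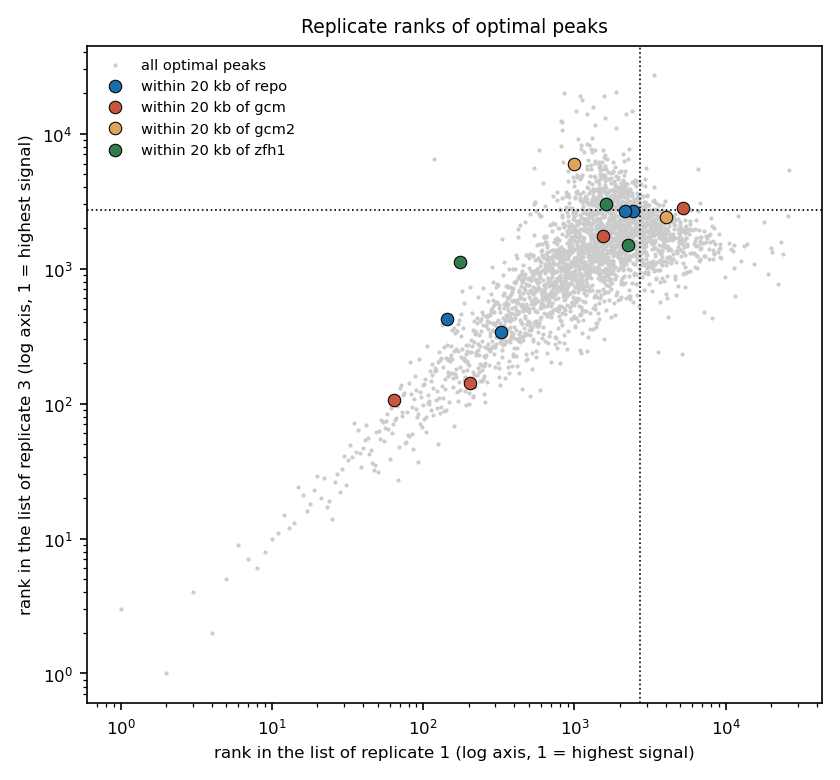
Rank of each optimal peak in the list of replicate 3 against its rank in that of replicate 1 (log axes, rank 1 the highest signal; peaks matched by nearest summit). Coloured points are the peaks within 20 kb of repo, gcm, gcm2 and zfh1, grey points all optimal peaks, and dotted lines rank 2697 in each replicate; the strong peaks of repo and gcm lie in the grey band, the zfh1 intron peak lies above it at ranks 175 and 1121, and 4 of the 13 lie beyond a dotted line.

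Agreement of the replicates at these peaks was like that of the optimal list. Of the 13 peaks, 9 (69.2%) were among the 2697 highest of both replicates, while this held for 68.5% of all optimal peaks. The replicate summits lay at a median of 34 bp apart (quartiles 17 to 42 bp) at the 13 peaks, with a median of 24 bp over all optimal peaks (quartiles 10 to 49 bp). They were within 50 bp at 10 of 13 (76.9%, Wilson 95% interval 49.7 to 91.8%, counting error only), while this held for 75.9% of all optimal peaks. The 3 exceptions were the repo upstream peak, the zfh1 intron peak and the cindr promoter peak. Exceptions among the strongest are less usual in the whole list, where 92.4% of the 250 highest peaks had summits within 50 bp and the median was 15 bp; 67.9% of peaks ranked 2001 to 2697 did. Of the 5 member peaks among the 500 highest, 3 were within 50 bp.

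The 112 weak peaks of the windows agreed less well than the optimal ones and somewhat better than weak peaks at large. They were found in both replicates at 74 of 112 (66.1%), against 51.7% of all 27303 weak peaks. Their replicate summits were within 50 bp at 34 of 112 (30.4%), and this held for 20.2% of all weak peaks. The 112 were also somewhat stronger, with a median signal of 37.3 against 34.7 and a median rank of 14014 against 16349. Agreement among weak peaks of like rank was not computed. The peaks with summits within 50 bp numbered 11 of 32 pooled peaks at repo, 10 of 21 at gcm, 7 of 15 at gcm2, 11 of 35 at ttk and 6 of 25 at zfh1. By class, 28 of the 112 were in promoters, 29 in coding exons, 25 in introns and 25 intergenic. The intergenic share was 22.3% at the members and 12.8% over all weak peaks, and coding exons held 25.9% at the members and 25.4% over all weak peaks.

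**Figure D3:**
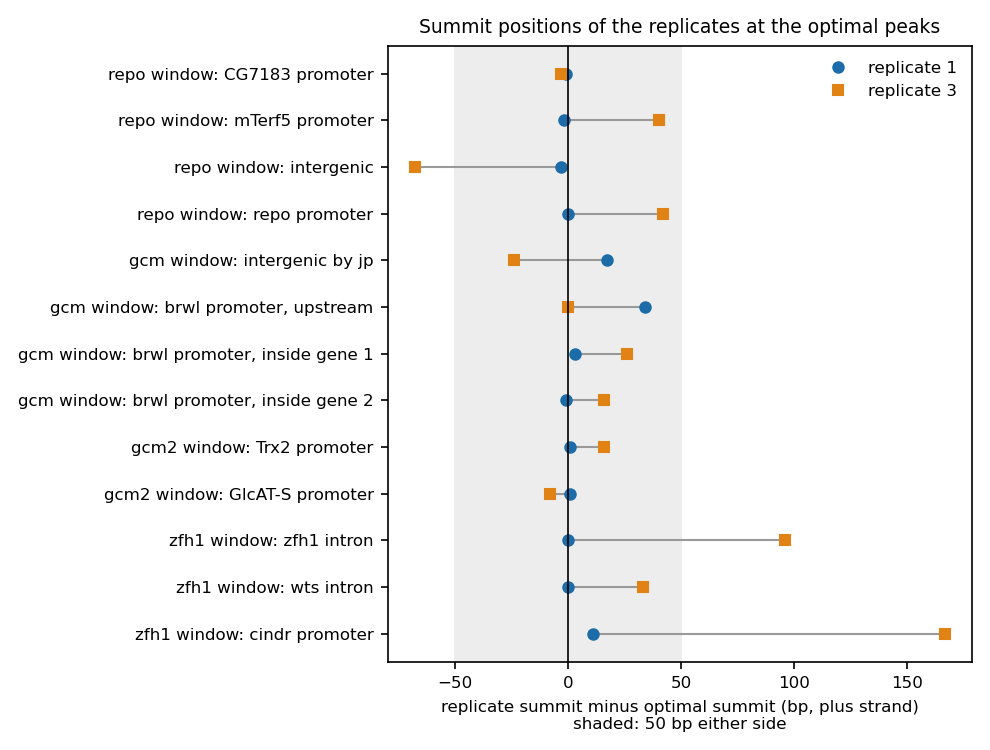
Position of the summit in replicate 1 (blue circles) and replicate 3 (orange squares) relative to the optimal summit, in bp along the plus strand, for the 13 optimal peaks in the order of the genes; shading marks 50 bp either side. The replicate 1 summits lie at or near the optimal summit at most peaks, and the replicate 3 summits at the repo intergenic, zfh1 intron and cindr promoter peaks lie outside the shading.

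Bound regulators (repo and zfh1) had 7 optimal peaks in 106.7 kb of window, or 0.656 per 10 kb, and unbound regulators (gcm, gcm2 and ttk) had 6 in 134.7 kb, or 0.445 per 10 kb, with peaks and bases shared by the gcm and gcm2 windows counted once. The 2 peaks that define the bound genes are part of the first value, and without them the bound regulators had 5 optimal peaks, or 0.469 per 10 kb, close to the unbound ones. All genes had a median of 0.238 per 10 kb (quartiles 0 to 0.481). In the pooled list there were 57 peaks at the bound and 68 at the unbound regulators, or 5.34 and 5.05 per 10 kb. The median pooled signal was 44.5 at the bound and 39.5 at the unbound regulators. Replicate summits lay within 50 bp at 17 of 57 pooled peaks (29.8%) of the bound regulators and at 27 of 68 (39.7%) of the unbound ones. Neither group was uniform: gcm, unbound, had the highest optimal density (0.947 per 10 kb), and ttk, also unbound, had the second highest pooled density after repo. The comparison is of 5 genes and allows no test.

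**Figure D4:**
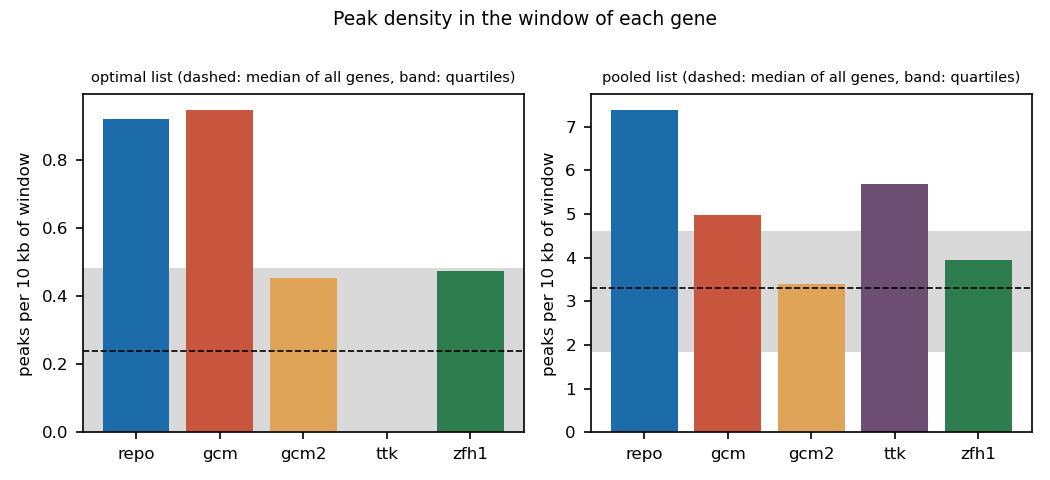
Peaks per 10 kb of window for each gene in the optimal list (left) and in the pooled list (right). Bars are values of single windows, dashed lines the median of all protein-coding genes (0.238 and 3.31) and grey bands their quartiles; repo and gcm exceed the band in both lists, ttk is at 0 on the left and above the band on the right, and gcm2 and zfh1 lie inside it.

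Signal at promoters in the pooled list ordered the 5 genes as follows. The highest-signal peak within 500 bp of a TSS of the gene itself had a signal of 94.1 at repo, 73.0 at gcm2, 65.5 at ttk, 48.7 at zfh1 and 34.9 at gcm. Only that of repo exceeded 84.0. The pooled list includes background, and the share of all genes with a pooled peak at a promoter was not computed. No weight is therefore put on the presence of such a peak. Each value is the highest over 4 starts at ttk, 2 at zfh1 and 1 at each of the other genes. Neighbours in this order cannot be separated by a replicate error, because each value is 1 pooled peak. In replicate 1 the ranks of these peaks were 2149, 2791, 5038, 12462 and 8463 in the same order of genes, and in replicate 3 they were 2667, 9640, 10447, 3323 and 6368. Among these peaks both replicates put repo first, and the order of the other 4 genes differed between them. At another start of ttk replicate 3 had a peak of rank 2525, ahead of the one at repo.

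The sequence round the 13 summits (100 bp either side, both strands) was searched for 7 motifs. CAATTA and TAATTA share 5 of their 6 letters and were counted apart. CAATTA, the reported Repo site, was in 1 of 13 windows and in 17.4% of all optimal windows; with 200 bp either side it was in 3 of 13 and in 31.3% of all. That match lay at the repo upstream peak, 18229016 to 18229021, and began 5 bp from the summit. A Gcm site (ATACGGGC, ATACGGGT, ATGCGGGC or ATGCGGGT) was in the same window, at 18229048 to 18229055, 37 bp from the summit, and such sites were in 0.742% of all optimal windows, 20 of 2697. The homeodomain words TAATTA and TAATGA were in 3 and 2 of 13 windows, and in 12.1% and 11.5% of all. Both were at the CG7183 promoter peak of the repo window and at the brwl peak of highest signal, and TAATTA was also at Trx2. CACCTG, an E-box bound by zinc finger homeodomain proteins, was in the Trx2 window alone (6.04% of all), and TATCGATA, the Dref site, in the mTerf5 window alone (4.93% of all). GAGAGAG, the GAGA factor site, was in 0 of 13 windows (5.30% of all). A match is a run of letters and not a shown site of binding, and the repo promoter peak and the zfh1 intron peak held none of the 7 within 100 bp. The GC content of the 13 windows ran from 22.9 to 58.2% with a median of 41.8%, and the median of all optimal windows was 38.8%.

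Other genes of the same pathways were taken as lists. The lists were chosen with earlier results of these data known, so their shares are descriptions and no enrichment was tested. Of 8 other glial fate regulators, 5 were bound (62.5%), while 19.7% of all genes and 39.5% of genes of 15 to 30 kb were; the median length of the interval was 26.5 kb in the list and 4.17 kb over all genes, and longer intervals can hold more peaks. The bound ones included 2 genes that act below Gcm in glia: pnt, an ETS factor gene, with 4 optimal peaks of signal up to 168 (rank 754, ranks of 879 and 710 in replicates 1 and 3), and loco, which encodes a protein that tunes G protein signalling, with 3 optimal peaks of signal up to 119 (rank 1426), that one 538 bp from its TSS. N (Notch, a receptor of cell fate choice) had an intron peak of 251 (rank 298) and numb (an inhibitor of Notch) a promoter peak of 185 (rank 606), while retn, an ARID protein gene, had 1 of 88.3 (rank 2477). The genes hkb, pros and D, transcription factor genes of neural precursors, were not bound, and their highest weak signals were 43.6, 57.9 and 69.8.

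Of 7 partners and regulators of Ttk and Zfh1, 5 were bound (71.4%), while 19.7% of all genes were. The median interval was 10.2 kb in the list and 4.17 kb over all genes. The share bound among genes of like length was not computed for this list, which was also chosen with earlier results known. The corepressor gene gro had a promoter peak of 391 (rank 111), with ranks of 107 and 115 in the replicates, the strongest of this list. Mi-2, a chromatin remodeller gene, had an intron peak of 302 (rank 197), ebi a promoter peak of 199 (rank 521) and MEP-1, which encodes a partner of Mi-2, a promoter peak of 180 (rank 646). CtBP, the corepressor that Zfh1 recruits, had an intron peak of 119 (rank 1424). The genes phyl and sina, whose products direct the breakdown of Ttk, were not bound and had highest weak signals of 80.1 and 68.9. Of 3 hemocyte regulators that act beside gcm, 1 was bound (33.3%), while 19.7% of all genes and 39.5% of genes of 15 to 30 kb were. The median interval of the list was 21.0 kb, and 3 genes are too few to tell these shares apart. The bound gene, ush, a GATA cofactor gene, had 8 optimal peaks in 66.3 kb, the highest with signal 1698 (rank 2, and ranks 1 and 3 in replicates 1 and 3). That peak was nearer to the TSS of cbt. The peaks given for N, Mi-2 and retn also had another gene's TSS nearest. These were CG18508 (10621 bp away), Su(Tpl) (6139 bp) and Pde8 (5156 bp), in that order. The GATA factor gene srp and the Runx gene lz were not bound, with highest weak signals of 52.9 and 53.4. Of the bound genes of the 3 lists, retn alone had no peak above the 94.1 at the promoter of repo.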

How the data were processed

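Measured were ChIP-seq peaks of 2 biological replicates and of both pooled, on dm6. Lists of 30000 peaks with background, meant for irreproducible discovery rate (IDR) analysis, exist for each replicate and the pool, and the optimal list passed the IDR threshold, per the labels and their deposited text files. Aligner, peak caller and threshold: not given in the sources used here. The signal value and the −log10 q-value of each peak are the authors' own as deposited; the q-value was not used. The deposited offset gave the summit. Read depth is unknown. In the optimal list 2282 of 2697 summits lay within 1 bp of the peak's centre.

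Positions were made 1-based and placed on the dm6 RefSeq sequence with the Ensembl BDGP6 annotation; dm3 lists were not used. A replicate peak matched when it overlapped a peak by at least 1 bp, the nearest summit being taken. Summits took the class that applied earliest in the order promoter (within 500 bp of a protein-coding TSS), UTR, coding exon, other exon, intron, intergenic. A gene interval ran from 2000 bp upstream to the gene end. Genes named are the members, the genes nearest to or holding their optimal summits, the listed pathway genes, and some neighbours of these. Members, lists and motifs were chosen with earlier results of these data known. Matching was tested on simulated peaks. Python 3.11.15, pandas 2.3.3, numpy 2.4.6, scipy 1.17.1 and matplotlib 3.10.9 were used. Alternatives were other windows, ranks, overlap rules, distances and single replicates.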

Additional observations from a re-analysis of the deposited data

How the results depend on the processing

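With windows of 10 kb, repo and gcm had 2 optimal peaks each; with 5 kb, repo and zfh1 had 1 each and gcm had 0. Among the 1348 highest optimal peaks, repo and gcm had 2 each, zfh1 had 1 and gcm2 had 0. When the 2697 highest peaks of a single replicate replaced the optimal list, the counts were 4 to 5 at repo, 3 at gcm, 1 at gcm2, 1 to 2 at ttk and 3 at zfh1. Without replicate 1 ttk had 2 such peaks, and without replicate 3 it had 1; these are different peaks. The bound members, 2 in the optimal list, were then 3 in either replicate (repo, ttk and zfh1). Bound members numbered 1 when a summit had to lie within 1000 bp of a TSS (repo) and 1 among the 1348 highest peaks (zfh1). The share of all protein-coding genes bound under these other rules was not computed, so these counts have no background beside them. The share of the 13 peaks with replicate summits close together was 38.5% at 25 bp and 92.3% at 100 bp. Counting any overlap with the window, the nearest TSS, or the summit of the highest overlapping replicate peak left these counts and shares within 1.5 times or their interval. With motif windows of 50 bp either side, TAATGA was in 1 of the 13 windows and CACCTG in 0; with 200 bp, CAATTA was in 3, CACCTG in 2 and GAGAGAG in 1. No paired analysis was possible because the series holds 1 group. The lists hold no read counts, so depth limits every value by an unknown amount.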
